A study of Vitis vinifera with 36 samples.

Results

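The MYBA genes of the berry colour locus of grape encode R2R3-MYB transcription factors, and 4 genes of this locus were listed by identifier, VIT_02s0033g00380, VIT_02s0033g00390, VIT_02s0033g00410 and VIT_02s0033g00450. Only VIT_02s0033g00450 was analysed, which is 1 of the 4 listed genes and 1 of the 27751 genes counted, while VIT_02s0033g00380, VIT_02s0033g00390 and VIT_02s0033g00410 were not analysed here. The deposited annotation names VIT_02s0033g00450 as the myb-related transcription factor VvMYBA3, with MYB114 of Arabidopsis as its closest Swiss-Prot entry and a pair of Myb-like DNA-binding domains. The RefSeq entry with the same identifier lies on chromosome 2 and carries both MybA1 and MybA3 among its synonyms, so the gene is called here by its identifier and not by 1 of the copy names.

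The locus sets berry skin colour in grape. Its MYBA proteins act together with bHLH and WD40 partners to switch on UFGT, which encodes the glucosyltransferase that makes anthocyanins stable, and skins in which no functional MYBA copy is left stay white. Coloured berries turn on the locus at veraison, when the skin begins to colour and the berry to soften.

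Pericarp RNA was sequenced from ‘Summer Black’, a table grape named ‘Sanbenti’ in the sample labels, and from its bud sport ‘Nantaihutezao’, named ‘11-06-25’ there. A bud sport is a branch with a somatic change that is propagated as a new cultivar, and this one ripens earlier than its parent. Both cultivars were grown as 3-year-old vines under film, without any other treatment named, and berries were taken every 7 days from veraison (S5) to maturity (S10), with 3 replicates per cultivar and stage and 36 libraries in all. The labels name berries as the organ. They do not say whether the 3 replicates came from separate vines. The paper describes berries picked at each time from a pair of clusters, and does not say how the replicates were drawn from them. The tests therefore measure the spread between these libraries and not between vines. Stages are labelled for each cultivar, as veraison, as days after it or as maturity. At the same stage, a difference between the cultivars and an offset in their ripening cannot be told apart.

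The depth ran from 15323095 to 20469617 gene-assigned reads in a library (median 18984515), and 6495 genes had no read in any library. All 36 libraries were most similar, by rank correlation over genes, to a library of their own cultivar and stage. That includes the 6 libraries of S6, although some headings of the deposited comparison columns, which were not used, place S6 libraries of both cultivars in 1 group. Of 12 seed marker genes (oleosins and seed storage proteins) 4 had no count, VIT_07s0005g03400, VIT_07s0005g03410, VIT_12s0034g02000 and VIT_17s0000g09000. The sum of the 12 was between 5.52 and 26.3 CPM, the counts relative to library size. It rested mainly on VIT_02s0234g00110 (5235 reads over all libraries) and VIT_14s0066g00700 (2068 reads), and no other marker had over 501 reads. The summed seed markers below are therefore mostly the level of these genes. The 124 genes annotated as thaumatins, expansins or polygalacturonases, 46 of them without a count, together with UFGT stood for ripening pericarp. The 124 summed to 2098 to 5898 CPM in the parent (median 4612) and to 4482 to 7654 CPM in the bud sport (median 6626). In bulk pericarp, fewer cells that express a gene and less RNA of it per cell cannot be told apart.

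VIT_02s0033g00450 was expressed in every library, with between 402 and 8950 reads and 166912 in all. Around it on the same scaffold, 17 other genes from VIT_02s0033g00300 to VIT_02s0033g00530 were counted, and 11 of them had 0 reads in all 36 libraries. Among these 11 were the 5 other genes of that stretch annotated as MYB113 or MYB114, VIT_02s0033g00370, VIT_02s0033g00400, VIT_02s0033g00430, VIT_02s0033g00440 and VIT_02s0033g00460. Among all genes counted, 11 carry MYB75, MYB90, MYB113 or MYB114 as their closest Swiss-Prot entry. The listed genes that were not analysed are not among these 11. Of the reads of the 11, 99.98% were on VIT_02s0033g00450, a share that leaves out the genes not analysed. The other reads fell on VIT_14s0006g01290 (3 reads in all) and VIT_14s0006g01340 (34 reads), 2 genes of a further MYBA cluster on chromosome 14, and VIT_14s0006g01280 of that cluster had 0. MYBA copies of the locus are similar in sequence, and how the counting treated reads that match several copies or the opposite strand is not given in the sources used here. Whether reads of the listed genes that were not analysed were placed on VIT_02s0033g00450 was not tested, so its level is that of the reads assigned to it.

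Its level was followed in CPM after TMM scaling over all 36 libraries. At S5 it was 30.6, 30.9 and 21.3 CPM in the replicates a, b and c of ‘Summer Black’ and 373, 420 and 362 CPM in those of ‘Nantaihutezao’. One week later, at S6, it was 264, 271 and 237 CPM in ‘Summer Black’ and 434, 477 and 449 CPM in ‘Nantaihutezao’. At S5 the bud sport was thus already near its highest level, whereas the parent at its own S5 was at its lowest. At both stages every library of the bud sport was above every library of the parent.

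At S7 the libraries of ‘Summer Black’ were at 315, 368 and 324 CPM and those of ‘Nantaihutezao’ at 366, 379 and 402 CPM, so that the cultivars overlapped. At S8 the order was turned, with 298, 308 and 291 CPM in ‘Summer Black’ and 209, 195 and 221 CPM in ‘Nantaihutezao’. The S8 libraries of the cultivars did not overlap.

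At S9 the values were 174, 288 and 277 CPM in ‘Summer Black’ and 162, 130 and 195 CPM in ‘Nantaihutezao’. Replicate a of the parent was far below the other two and lay inside the range of the bud sport. At S10 the level was 144, 147 and 158 CPM in ‘Summer Black’ and 60.4, 72.8 and 69.8 CPM in ‘Nantaihutezao’, again without overlap.

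**Figure D1:**
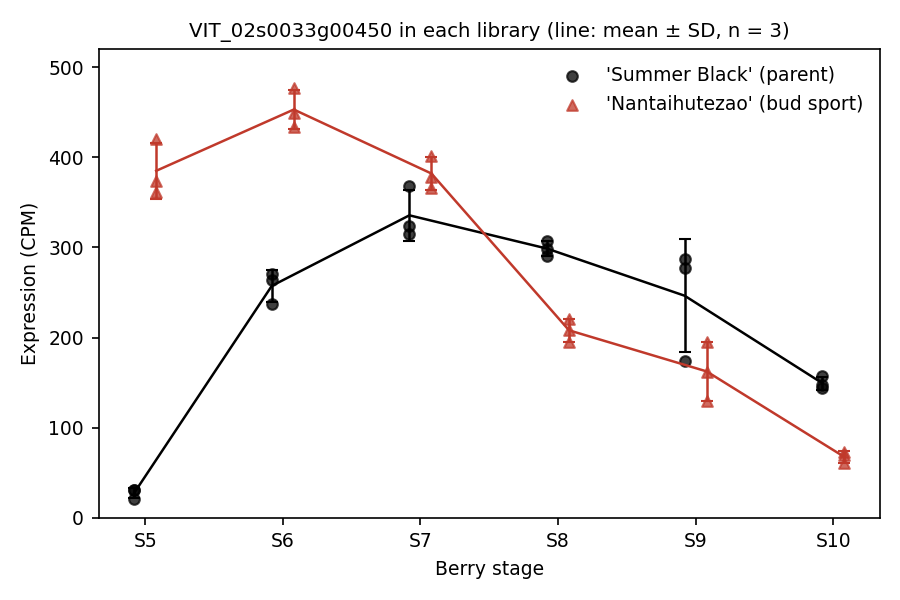
Expression of VIT_02s0033g00450 in CPM (vertical axis) at the stages S5 to S10 (horizontal axis); each point is 1 library of ‘Summer Black’ (black circles) or ‘Nantaihutezao’ (red triangles), and lines join the means with bars of 1 SD (n = 3). The bud sport starts at 385 CPM and falls to 67.7 CPM, and the parent starts at 27.6 CPM, rises to 336 CPM at S7 and ends at 149.5 CPM.

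Ordered by mean, the highest level was that of ‘Nantaihutezao’ at S6 (453 ± 21.9 CPM, SD, n = 3), followed by the same cultivar at S5 (385 ± 31.0 CPM) and S7 (382 ± 18.4 CPM), which overlapped each other. Then came ‘Summer Black’ at S7 (336 ± 28.1 CPM), whose libraries overlapped those of the bud sport at S7, at S8 (299 ± 8.49 CPM), at S6 (257 ± 18.1 CPM) and at S9 (246.5 ± 62.6 CPM). The ranges of the last 2 overlapped, and that at S8 was apart from those at S7 and S6. ‘Nantaihutezao’ at S8 (208 ± 12.8 CPM) and S9 (162.5 ± 32.8 CPM) and ‘Summer Black’ at S10 (149.5 ± 7.14 CPM) followed, and each of these overlapped the group before it. The 2 lowest groups were ‘Nantaihutezao’ at S10 (67.7 ± 6.48 CPM) and ‘Summer Black’ at S5 (27.6 ± 5.41 CPM), and neither overlapped its neighbours in the order.

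For each stage the 6 libraries were fitted with edgeR and the cultivars tested against each other by quasi-likelihood. A gene was called at a false discovery rate (FDR, Benjamini-Hochberg over all genes tested) under 0.05 with an absolute log2 fold change over 1, and fold changes are given as ‘Nantaihutezao’ over ‘Summer Black’. At S5, VIT_02s0033g00450 was 14.0-fold higher in the bud sport (log2 fold change 3.81, standard error [SE] 0.0951, edgeR FDR 1.44e-14). At that stage 7.51% of all genes tested were called higher in the bud sport and 8.63% lower. The summed seed markers at S5 were at 5.52 to 5.75 CPM in the parent and 10.6 to 12.6 CPM in the bud sport, and their part in the difference was not tested.

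At S6 the gene was still 1.76-fold higher in ‘Nantaihutezao’ (log2 fold change 0.83, SE 0.0553, edgeR FDR 4.4e-08), which passed the FDR but not the fold change of the call. Of all genes, 2.69% were called higher and 3.89% lower at S6. At S7 the difference was small (log2 fold change 0.18, SE 0.0534, edgeR FDR 0.0121), with overlapping libraries, beside 3.47% of all genes called higher and 4.55% lower. The edgeR FDR at S7 was 0.244 in 1 fit of all 36 libraries. It was 0.0558 without replicate c of ‘Summer Black’ and 0.0682 without replicate c of ‘Nantaihutezao’. The summed seed markers were higher in the bud sport without overlap at both stages, at 12.8 to 14.2 CPM in the parent and 16.2 to 19.2 CPM in the bud sport at S6, and at 9.04 to 12.7 and 23.7 to 26.3 CPM at S7. Their part was not tested.

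The later stages had the opposite sign. At S8 the level was 1.44-fold higher in ‘Summer Black’ (log2 fold change -0.51, SE 0.0559, edgeR FDR 4.18e-05), short of the fold change of the call, with 2.71% of all genes called higher in the bud sport and 3.76% lower. The seed markers summed to 11.95 to 15.3 CPM in the parent and 16.2 to 19.5 CPM in the bud sport at S8, and their part was not tested. At S9 it was 1.52-fold higher in ‘Summer Black’ (log2 fold change -0.58, SE 0.184, edgeR FDR 0.0452), and 3.44% of all genes were called higher and 1.85% lower, while the seed markers overlapped (12.7 to 13.7 CPM in the parent and 11.65 to 14.2 CPM in the bud sport). The S9 difference turned on single libraries. Its log2 fold change was -0.78 (edgeR FDR 0.000113) without replicate a of ‘Summer Black’. The edgeR FDR was between 0.125 and 0.188 when replicate b or c of ‘Summer Black’ or replicate a or b of ‘Nantaihutezao’ was left out, and 0.113 with DESeq2 on all 6. At S10 the gene was called lower in the bud sport, where its level was 2.21-fold below that of the parent (log2 fold change -1.15, SE 0.0586, edgeR FDR 1.27e-10). A test against a log2 fold change of 1 in place of 0 (glmTreat) did not make this call (FDR 0.0669). At this stage 3.59% of all genes were called higher and 5.1% lower. The seed markers summed to 5.66 to 7.01 CPM in the parent and 6.82 to 7.18 CPM in the bud sport at S10, ranges that overlapped.

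Between S5 and S10 the cultivar difference passed from positive to negative. In 1 model of all 36 libraries, the interaction of cultivar and stage had an FDR of 3.01e-20 (edgeR), and the log2 fold change at S10 was lower than that at S5 by a difference of -4.95 (SE 0.196). An interaction passed the FDR in 63.7% of all genes.

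Within ‘Summer Black’, the step from S5 to S6 was the main one. The level rose 9.33-fold, with a log2 fold change of 3.23 (SE 0.144, edgeR FDR 1.04e-19), at a step in which 17.8% of all genes were called in either direction. From S6 to S7 the log2 fold change was 0.39 (FDR 0.0122, with 6.87% of genes called in edgeR), and no later step of the parent was called. These steps were -0.19 from S7 to S8 (FDR 0.267, 4.71% of genes called), -0.28 from S8 to S9 (FDR 0.0774, 6.15% called) and -0.71 from S9 to S10 (FDR 4.03e-05, 4.48% called). Without replicate a the step from S8 to S9 was -0.09 (FDR 0.64 from edgeR).

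In ‘Nantaihutezao’ no rise was called, and the step that passed was the last. From S5 to S6 the log2 fold change was 0.25 (FDR 0.118, 6.49% of genes called) and from S6 to S7 it was -0.26 (FDR 0.0945, 7.72% called). The log2 fold change from S7 to S8 amounted to -0.88 (FDR 1.13e-06, 4.18% called), and that from S8 to S9 was -0.36 (FDR 0.0259, 4.33% called), which had an FDR of 0.236 without replicate b. From S9 to S10 the level fell 2.40-fold, with a log2 fold change of -1.26 (SE 0.132, edgeR FDR 3.8e-09, 3.22% called), a call that was not made with glmTreat (FDR 0.699). The cultivars also differed in how much of their own peak was present at the ends of the series. ‘Summer Black’ was at 8.22% of its highest stage mean at S5 and at 44.5% at S10, and ‘Nantaihutezao’ was at 85.0% at S5 and at 14.9% at S10.

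The genes that MYBA proteins and their partners are known for were taken as lists. They include chalcone synthase and flavonoid 3',5'-hydroxylase genes that the paper had already reported from these same data. Across the partner, late anthocyanin and early flavonoid lists and the MYBA genes of chromosome 14, 26 genes were counted, and 5 further identifiers were not analysed here. At S5, 14 of the 20 genes tested were called higher in the bud sport and 1 lower, at S6 none of 21 was called, and at S10 none of 21 was called higher and 10 were called lower. At S7, S8 and S9, 4 genes each were called lower and none higher, of 22, 21 and 21 tested. The shares of all genes called lower at these stages were 4.55%, 3.76% and 1.85%, beside 7.51% called higher at S5 and 5.1% called lower at S10. With glmTreat the list counts at S7, S8 and S9 were 1, 2 and 1, and that at S10 was 6. At S5 the list genes had a median of 2.49 on the log2 scale, against -0.02 for all genes tested, and at S10 the medians were -0.98 and 0.00. At S6 and S9 the list medians were 0.21 and -0.56, against -0.01 and 0.01 for all genes tested.

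The late list holds the enzymes that turn a colourless flavonoid into a stored anthocyanin and the transporters that carry it into the vacuole. Of its 6 tested genes, 5 were called higher at S5 (median log2 fold change of the 6, 3.84). None was called at S6, S7 or S9, 1 was called lower at S8 and 4 at S10, with a median of -1.07. At S6 and S9 all 6 passed the FDR but not the fold change of the call. The S6 median was 0.35, with VIT_01s0010g03510 lower (-0.25) and the others higher. At S9 all 6 were lower, with a median of -0.73. UFGT (VIT_16s0039g02230) was at 6.50, 7.30 and 6.80 CPM in ‘Summer Black’ and at 349.5, 385 and 380 CPM in ‘Nantaihutezao’ at S5. This gave the largest log2 fold change of the list, 5.77 (SE 0.0605, FDR 6.3e-19 from edgeR), and UFGT was lower in the bud sport at S10, with -1.11 (SE 0.0413, FDR 2.66e-12 from edgeR).

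LDOX (VIT_02s0025g04720), the dioxygenase that makes anthocyanidins, had a log2 fold change of 3.73 at S5 and -1.03 at S10, close to the 3.81 and -1.15 of VIT_02s0033g00450. DFR (VIT_18s0001g12800), the reductase one step before it, had 2.15 at S5 and -0.51 at S10, and only the first was called. FAOMT (VIT_01s0010g03510), which methylates anthocyanins, had 4.89 at S5 and -2.07 at S10, and it was also the gene called at S8, with -1.13. The transporter VIT_16s0050g00910, annotated as like TRANSPARENT TESTA 12, was called in both directions (3.96 and -1.24), whereas its relative VIT_16s0050g00930 stayed under the fold change of the call, with 0.86 and -0.85. The last gene of the list, VIT_01s0010g03470, had 9 reads in all and was not tested.

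UFGT did not follow the same course as VIT_02s0033g00450 at every step. In ‘Summer Black’ both had their highest mean at S7, but in ‘Nantaihutezao’ VIT_02s0033g00450 was highest at S6 and UFGT at S7. From S6 to S7 the log2 fold change in the bud sport was 0.56 for UFGT (SE 0.0505, FDR 3.81e-11 from edgeR) and -0.26 for VIT_02s0033g00450. At S10 UFGT was still at 70.2% of its peak in the parent and at 38.9% in the bud sport, against the 44.5% and 14.9% given above for VIT_02s0033g00450. The difference between the 2 genes was not tested.

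The early list holds chalcone synthases, chalcone isomerases and the hydroxylases of the flavonoid ring. All 9 of its tested genes were called higher at S5 (median 3.10 on the log2 scale), from 1.49 for the flavanone 3-dioxygenase VIT_18s0001g14310 to 3.72 for VIT_04s0023g03370, another enzyme of that step. Of 11 tested later, none was called at S6, 3 each were lower at S7 and S8, 4 were lower at S9 and 6 at S10, where the median was -1.11. The genes called lower at S7 to S9 were all flavonoid 3',5'-hydroxylases of the VIT_06s0009 cluster, the enzymes that give blue to purple pigments. These 4 copies are similar enough that reads could be split among them. VIT_06s0009g02880 and VIT_06s0009g03050 had few reads, 819 and 416 over all libraries. Their means at S10 were 0.356 and 0.0892 CPM in the bud sport and 1.42 and 0.863 CPM in the parent. VIT_06s0009g02810 of that cluster had log2 fold changes of 3.42 at S5, -0.93 at S6, where the call missed by its fold change, and -2.83 at S10. Without replicate a of the bud sport it was called lower at S6 as well, with -1.02 (FDR 1.45e-06 from edgeR). The chalcone synthases VIT_14s0068g00930 and VIT_05s0136g00260 had 3.10 and 3.31 at S5, and only the latter was called at S10, with -1.11.

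**Figure D2:**
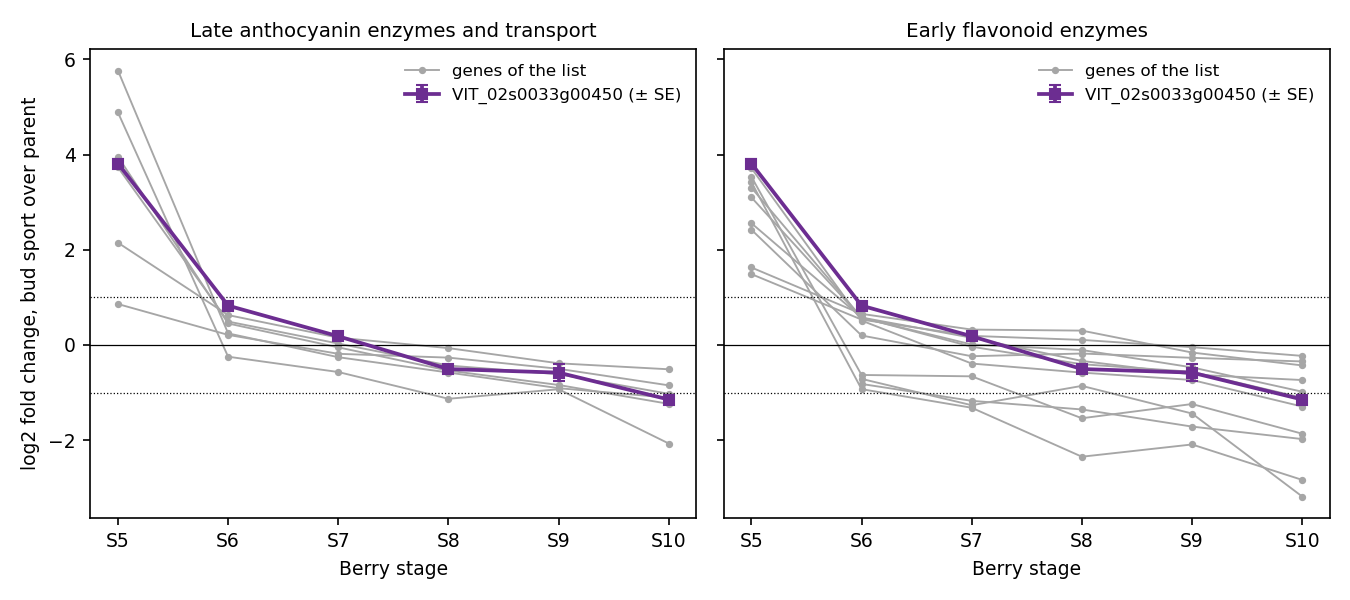
The log2 fold change of ‘Nantaihutezao’ over ‘Summer Black’ (vertical axis) at the stages S5 to S10 (horizontal axis) for VIT_02s0033g00450 (purple squares with bars of 1 SE) and for each tested gene (grey lines) of the late list (left) and the early list (right); dotted lines mark the fold change of the call. VIT_02s0033g00450 passes from 3.81 at S5 through 0.18 at S7 to -1.15 at S10, and 14 list genes are called higher at S5.

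Among the 5 genes whose products work with or against MYBA proteins, 1 was called lower at each of S5 and S7. Of all genes tested, 8.63% and 4.55% were called lower at these stages. At the other stages none of the list was called. The bHLH gene VIT_07s0104g00090, annotated as TT8, had log2 fold changes of 0.26 at S5, -0.95 at S7 and -0.58 at S10, and the second bHLH gene VIT_15s0046g02560, named as an anthocyanin regulatory myc protein, had 0.38 and 0.20 at S5 and S10. The WD40 gene VIT_16s0098g00870 (WD-repeat 1) had 0.03 and -0.45, and the repressor gene MYBC2-L1 (VIT_01s0011g04760) had 0.12 and -0.53. None of these 4 was called at any stage, but at S7 all 4 passed the edgeR FDR. There VIT_07s0104g00090 (FDR 3.99e-10), MYBC2-L1 (-0.71, FDR 6.46e-08) and VIT_16s0098g00870 (-0.17, FDR 0.0188) were lower in the bud sport. VIT_15s0046g02560 was higher (0.30, FDR 0.00335). The 1 call of the list in each of S5 and S7 was VIT_14s0006g01620, annotated as the repressor MYB4, with -2.23 at S5 (SE 0.347, FDR 3.61e-05 from edgeR). It was a gene of few reads, 310 over all libraries, and its mean at S5 was 0.423 CPM in the bud sport and 2.02 CPM in the parent.

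Of the 17 neighbours on the scaffold, 4 had enough reads for the test, and none was called higher in the bud sport at any stage. With only 2.69% to 7.51% of all genes called higher per stage, this is no result about these 4. VIT_02s0033g00310, which carries no annotation, was lower at S5 (log2 fold change -1.53, SE 0.356, FDR 0.0014 from edgeR). The MYB family gene VIT_02s0033g00300, annotated as like APL, was lower at S6 (-1.01) and S7 (-1.32). Of all genes tested, 8.63% were called lower at S5, 3.89% at S6 and 4.55% at S7. At S8, S9 and S10 none of the 4 was called, beside 3.76%, 1.85% and 5.1% of all genes called lower.

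The genes with the most similar course were sought by Pearson's r of log2 CPM with VIT_02s0033g00450 over the 12 cultivar and stage means, among 16845 genes. The points share the same libraries and the same ripening series, and 87 genes had an r over 0.9, so the values are a description. The 5 highest were LDOX (VIT_02s0025g04720, r = 0.992), the chalcone isomerase-like gene VIT_13s0067g02870 (r = 0.991), the phenylalanine ammonia-lyase gene VIT_06s0004g02620 (r = 0.984), VIT_08s0058g01480, annotated as a mannan endo-1,4-beta-mannosidase (r = 0.984), and DFR (VIT_18s0001g12800, r = 0.978). Phenylalanine ammonia-lyase opens the phenylpropanoid pathway that feeds both flavonoids and stilbenes, and the mannosidase is an enzyme of the cell wall. Over the 36 single libraries 4 of these 5 were again among the 5 highest.

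Several other genes of the lists ranked close behind. The chalcone synthase gene VIT_14s0068g00930 had an r of 0.977 and rank 6, the flavanone 3-dioxygenase gene VIT_04s0023g03370 had 0.971 and rank 8, and FAOMT had 0.958 and rank 11. The transporter gene VIT_16s0050g00910 had 0.934 and rank 30, and the chalcone synthase gene VIT_05s0136g00260 had 0.933 and rank 32. UFGT stood lower, with an r of 0.823 and rank 296. The partner genes were at 0.575 for VIT_07s0104g00090, 0.338 for VIT_15s0046g02560 and 0.327 for VIT_16s0098g00870, and the repressor genes were at 0.426 for MYBC2-L1 and -0.12 for VIT_14s0006g01620.

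**Figure D3:**
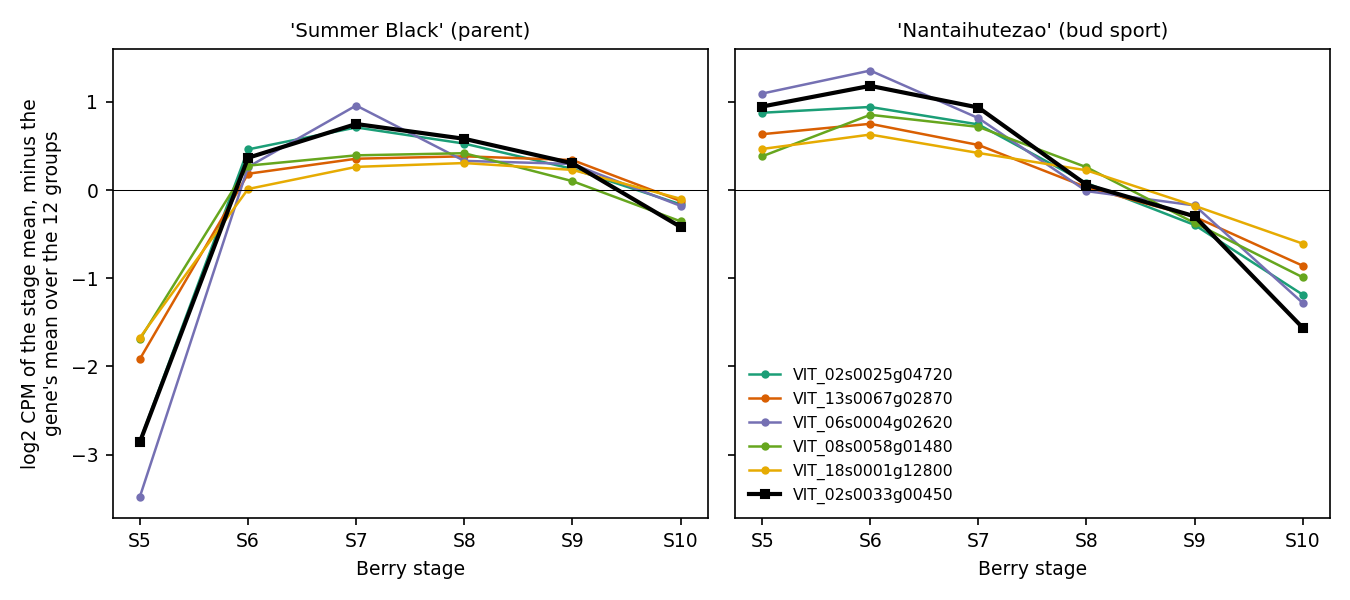
Course of VIT_02s0033g00450 (black) and of the 5 genes with the highest r (colours) as log2 CPM of each stage mean, minus the mean of the gene over the 12 groups (vertical axis), at the stages S5 to S10 (horizontal axis), in ‘Summer Black’ (left) and ‘Nantaihutezao’ (right). All 6 genes are lowest in the parent at S5 and end lower in the bud sport than in the parent at S10, with VIT_02s0033g00450 at 27.6 CPM and 67.7 CPM in these 2 groups of lowest level.

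The deposited FPKM values, which are scaled to length and library size, gave another picture of the level than the counts. The FPKM per CPM (here by library total) was between 1.53 and 1.71 in 24 libraries, between 3.08 and 3.85 in 7 libraries of ‘Nantaihutezao’ and between 3.95 and 6.11 in 5 libraries of ‘Summer Black’. Both kinds of library occurred in 10 of the 12 groups. Among 9684 genes with over 100 reads in every library, the SD of the log2 of this ratio was 0.682 for VIT_02s0033g00450 and 0.0943 for the median gene, and only 0.134% of genes had one at least as high. For UFGT the ratio stayed between 0.724 and 0.964.

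**Figure D4:**
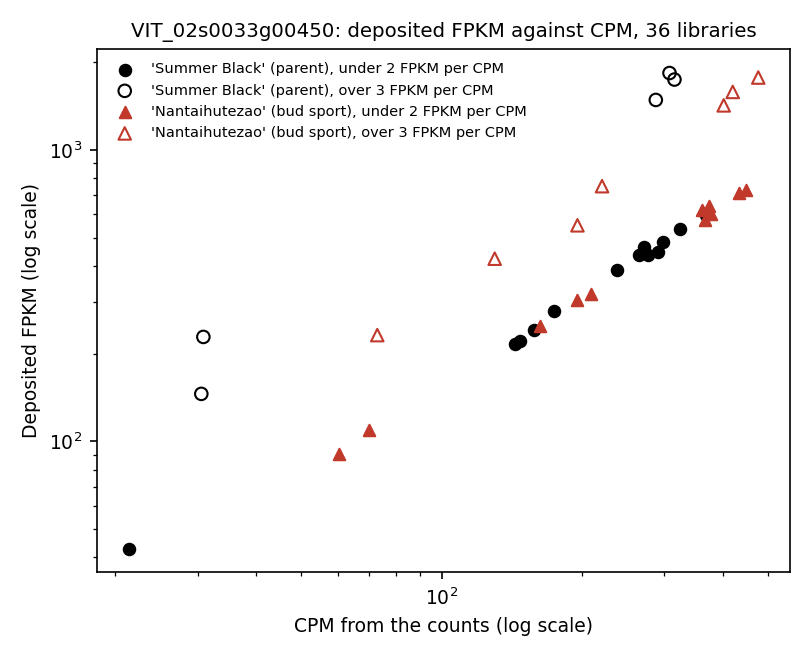
Deposited FPKM (vertical axis, log scale) against CPM from the counts (horizontal axis, log scale) of VIT_02s0033g00450 in the 36 libraries of ‘Summer Black’ (black circles) and ‘Nantaihutezao’ (red triangles); open symbols are the 12 libraries with over 3 FPKM per CPM. The filled symbols form 1 line and the open symbols lie above it in both cultivars.

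By mean FPKM, VIT_02s0033g00450 was 6.82-fold higher in ‘Nantaihutezao’ at S5 and 2.49-fold higher at S6, in both cases without overlap. At S7 the sign was turned against that of the counts, with a log2 ratio of -0.15 in FPKM and 0.19 in CPM. From S7 to S10 the cultivars overlapped in FPKM, with log2 ratios of -1.01, -0.85 and -0.65 at S8, S9 and S10. The higher level of the bud sport at S5 and S6 was thus present in both units, and the lower level at S8 and S10 was free of overlap only in the counts.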

How the data were processed

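Pericarp libraries were prepared with a TruSeq kit and sequenced on the HiSeq X-ten platform. The authors aligned the filtered reads to the Vitis vinifera reference with TopHat 2 and deposited, per the file headers, raw read counts per gene for every library, and FPKM values from Cuffdiff (versions and build are not given in the sources used here). A further 111 columns hold the log2 fold changes, FDR values and calls of the authors' comparisons and were not used. Every column of counts was mapped to a sample by its name, and the cultivar names were matched by which was parent and which bud sport.

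Low genes were removed by filterByExpr, with 10 as its minimum count and 15 as its minimum total, and libraries were scaled by TMM (factors 0.916 to 1.224). Each stage was tested on its 6 libraries, and steps and interaction in a fit of all 36, in which 16846 genes passed, with edgeR 4.0.16 and limma 3.58.1 in R 4.3.3. The SE is the absolute log2 fold change divided by the square root of F. Likeness used log2 CPM with a prior count of 2. Python 3.11.15, pandas 2.3.3, numpy 2.4.6 and matplotlib 3.10.9 made tables and figures. The test was checked on simulated data.

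The genes named are the 4 listed genes, their neighbours on the scaffold, the pathway lists and the 5 genes of highest r. A list gene was dropped when its deposited annotation did not name a family of its list, which removed VIT_03s0017g00870. The members and lists were chosen with earlier results of these data known. Names come from the deposited annotation and from RefSeq (assembly GCF_030704535.1), whose coordinates were not used. No pair of replicates agreed within sampling noise, with a chi-square per gene of 2.28 to 31.2. Alternatives were DESeq2 1.42.0, other scalings, no filter, 1 fit of all libraries, the replicate letter as a block, single libraries left out, glmTreat and FPKM.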

Additional observations from a re-analysis of the deposited data

Results flagged for a closer look

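The cultivar difference of VIT_02s0033g00450 was not the same over the stages. The log2 fold change of ‘Nantaihutezao’ over ‘Summer Black’ at S10 minus that at S5 was -4.95 (SE 0.196), and the interaction of cultivar and stage, tested with edgeR over the 36 libraries, had an FDR of 3.01e-20. All 3 libraries of the bud sport were above those of the parent at S5 and all 3 were below them at S10.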

How the results depend on the processing

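For VIT_02s0033g00450, 184 of 186 alternative values from the counts kept their direction and their side of the call, and 0 changed sign. They cover the cultivar, step and interaction comparisons, and FPKM is not among them. With an absolute log2 fold change under 1 the gene stayed uncalled whatever its FDR against 0. A change of FDR alone was not counted there. Under glmTreat, which tests against a log2 fold change of 1, the cultivar difference at S10 (-1.15, FDR 0.0669) and the step from S9 to S10 in ‘Nantaihutezao’ (-1.26, FDR 0.699) were not called. Of 78 alternative counts of calls in the lists, 73 were within 1.5 times the count reported. The exceptions under glmTreat were 1 call for S7, 2 for S8, 1 for S9 and 6 for S10, against 4, 4, 4 and 10, and, without replicate a of ‘Nantaihutezao’ at S6, 1 call against 0. In FPKM the log2 ratio of mean levels was 2.77 (S5), 1.32 (S6), -0.15 (S7), -1.01 (S8) and -0.65 (S10), against 3.80, 0.82, 0.19, -0.52 and -1.14 in CPM, so that S7 changed sign. The cause was not tested. Upper-quartile scaling moved the median of all genes by -0.11 at S5, and no other scaling moved one by over 0.1. The replicate letters did not pair the samples: over 18 pairs the correlation of deviations was -0.06 to 0.08, 7 of 18 bud sport libraries were closest to their own letter, and with the letter as a block the log2 fold change was 3.82 at S5 and -1.15 at S10, and no call of the gene changed. Precision differed by stage, with an SE of the cultivar difference between 0.0534 at S7 and 0.184 at S9. Whether reads of other MYBA copies were counted on the gene was not tested.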
